A study of Rattus norvegicus with 12 samples.

Results

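Cholesterol and fatty acid synthesis genes were examined in rat XEN cells, a cell line of the extraembryonic endoderm, under activation of the Wnt pathway, activation of adenylate cyclase, or both. The genes were 31 named members of the sterol and fatty acid synthesis pathways and their sensors. The list names genes and sets no threshold on a measured value, and it was drawn up with earlier results of these data known. The platform annotation, with older symbols brought up to date, gave values to 28 of the 31, among 16633 genes measured in all, and Hmgcs1, Mvk and Fasn are not analysed here. The cells, of the Fisher strain, form 4 groups of 3 Affymetrix arrays each, 12 arrays in all. Control cells were left untreated. In the CHIR group, 3 µM CHIR99021, which blocks GSK3 and so leaves beta-catenin active, was present for 2 days. In the Forskolin group, 10 µM forskolin, which raises cAMP through adenylate cyclase, was present for 1 day. In the CHIR_Forskolin group, called the combination here, cells had 3 µM CHIR99021 during 2 days and 10 µM forskolin as well on the final 1 day. Medium with little serum was used on the final day in all 4 groups, the controls included. Because exposure to CHIR99021 lasted 2 days and exposure to forskolin 1 day, the compound and the time of exposure cannot be told apart. The 3 arrays of a group are described as parallels with no statement that they were separate cultures, and p-values therefore reflect only how these samples vary, which may be technical.

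Cholesterol is built from acetyl-CoA through mevalonate and isoprenoid units to squalene, which is oxidised, closed into lanosterol and trimmed to cholesterol by a chain of endoplasmic reticulum enzymes. Fatty acid synthesis starts from the same acetyl-CoA, which acetyl-CoA carboxylase commits to the growing chain. Fatty acid synthase, encoded by Fasn and not analysed here, builds that chain, and elongases and desaturases follow. Both pathways are driven by the SREBP transcription factors, encoded by Srebf1 and Srebf2. The carrier SCAP takes the SREBP precursors to the Golgi for cleavage when sterols are low, and the INSIG proteins hold SCAP back when sterols are high. In the mouse, the visceral yolk sac endoderm takes up maternal lipids and secretes lipoproteins to the embryo.

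The promoters of 4 members whose levels moved under 1 or both compounds, chosen after their values were seen, are shown so that the letters can be read beside the values that follow. Each is the 250 bases before the annotated gene start in RefSeq, rat assembly GRCr8, read 5′ to 3′ on the gene's strand. Capitals mark the CCAAT box (CCAAT, or ATTGG on the other strand) and the core of the cAMP response element (TGACG, or CGTCA on the other strand).
Insig2, chr13:35040099-35040348, minus strand: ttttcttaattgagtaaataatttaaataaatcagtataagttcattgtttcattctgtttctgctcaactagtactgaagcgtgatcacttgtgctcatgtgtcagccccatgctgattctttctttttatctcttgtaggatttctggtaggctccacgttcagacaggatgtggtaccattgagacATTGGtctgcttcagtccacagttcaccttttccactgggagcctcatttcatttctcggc
Hsd17b7, chr13:84722755-84723004, minus strand: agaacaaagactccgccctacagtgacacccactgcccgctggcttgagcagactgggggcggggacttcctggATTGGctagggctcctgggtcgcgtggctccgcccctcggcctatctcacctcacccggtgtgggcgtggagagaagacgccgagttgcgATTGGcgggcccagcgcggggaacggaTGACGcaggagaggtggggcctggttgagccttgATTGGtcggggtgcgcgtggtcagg
Sc5d, chr8:51538278-51538527, minus strand: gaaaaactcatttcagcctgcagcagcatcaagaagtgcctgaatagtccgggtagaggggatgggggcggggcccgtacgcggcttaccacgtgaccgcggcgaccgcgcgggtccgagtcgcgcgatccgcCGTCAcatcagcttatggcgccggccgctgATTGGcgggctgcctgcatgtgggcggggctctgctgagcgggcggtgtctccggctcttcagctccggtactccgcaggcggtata
Lss, chr20:12118231-12118480, minus strand: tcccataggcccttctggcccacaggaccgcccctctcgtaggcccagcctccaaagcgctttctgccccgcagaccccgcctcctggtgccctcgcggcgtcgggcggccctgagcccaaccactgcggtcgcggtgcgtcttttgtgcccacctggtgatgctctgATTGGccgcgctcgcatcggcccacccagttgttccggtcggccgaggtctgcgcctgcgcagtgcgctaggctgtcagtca
Of the 28 measured members, 22 had such a window, and Pmvk, Fdft1, Sqle, Stard4, Acaca and Elovl6 did not. Srebf1 had windows at separate starts. A member counts once if any of its windows holds the letters, whereas the share over all genes is per window. The CCAAT box, which binds NF-Y, stood before 16 of the 22 members (72.7%), against 34.0% of 33469 windows of the same length before all genes. The GC box GGGCGG, which binds Sp1-type factors, stood in 18 of 22 (81.8%), against 30.5% of all windows. The core TGACG stood in 10 of 22 (45.5%), against 18.2%, and these counts are over both strands. The full cAMP response element TGACGTCA was before none of the 22 members and in 1.59% of all windows. The TCF letters CTTTGAT were in none of the 22 and in 3.15% of all. The sterol response letters TCACNCCAC were in none of the 22 and in 0.974% of all, and TGACG is contained in TGACGTCA. These are matches of letters within 250 bases and say nothing of what binds there.

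Values are the authors' deposited log2 signals, already normalised between arrays, and the value of a gene is the median of its probe sets on an array. The 12 array medians ran from 7.76 to 7.86. Probe set signals of 2 arrays correlated at 0.985 to 0.991 inside a group and at 0.957 to 0.984 across groups. The 6 markers of extraembryonic endoderm (such as Gata6, Sox17 and Dab2) were all above background, with array means of 11.45 to 12.00. The markers of adipocytes (0 of 6), hepatocytes (0 of 5) and endothelium or blood (0 of 3) were not above background in any group, and for visceral endoderm 7 of 10, pluripotent cells 1 of 3, trophoblast 1 of 4 and fibroblasts 2 of 6 were. Background is here the 95th percentile (6.42) of 1102 olfactory receptor genes. Markers of parietal endoderm, the migratory form of this lineage, moved with the groups: all 11 measured were above background, and their mean per array was 12.30 to 12.35 in controls, 12.45 to 12.50 with forskolin, 11.02 to 11.20 with CHIR and 11.46 to 11.54 with the combination. The mean of the 10 visceral endoderm markers was 8.04 to 8.07 in controls, 8.01 to 8.05 with CHIR, 7.46 to 7.48 with forskolin and 7.35 to 7.39 with the combination, and Afp, Apob and Rbp4 of this list stayed below background. The mean of the 6 general endoderm markers was 11.83 to 11.88, 11.45 to 11.52, 11.93 to 12.00 and 11.70 to 11.81 in the same order. The part of these shifts in the values below was not tested. The samples are bulk cultures, in which fewer cells of a type and less RNA per cell cannot be told apart.

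1 array stood apart for these genes. The first combination array had the lowest value of its group in 25 of the 28 members, where it was lowest in 38.0% of all 16633 genes. The share for the other 11 arrays was at most 13 of 28 members. Combination results that rest on it are therefore also given without it.

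All 28 members lay above background, with highest group means between 7.81 and 13.54 log2 signal, and their changes were modest. Of 168 values, 28 members in 6 pairwise comparisons, 0 reached a difference of 1 log2 unit, and the largest was 0.83. Within groups, the pooled SD of the members was 0.0466 to 0.237, with a median of 0.111, against a median of 0.127 over all genes. A limma fit over all genes and all 12 arrays, with p-values adjusted over 16633 genes and a threshold of 0.05, called 19 of the 28 members in at least 1 of the 6 comparisons. The 9 called in none were Acat2, Pmvk, Mvd, Fdps, Fdft1, Cyp51, Msmo1, Acly and Fads2. Thus 5 of the 6 measured enzymes before squalene passed no test of this fit, the exception being the isomerase Idi1. Fdps passed in 2 comparisons once the first combination array was left out. With an intensity trend in the variance 17 members were called with CHIR, against 11 in this fit. The members gained there include at least 1 of the 9, and values of unnamed members under that setting are not given. How many of all genes were called in at least 1 comparison was not counted, so these counts describe the members only.

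**Figure D1:**
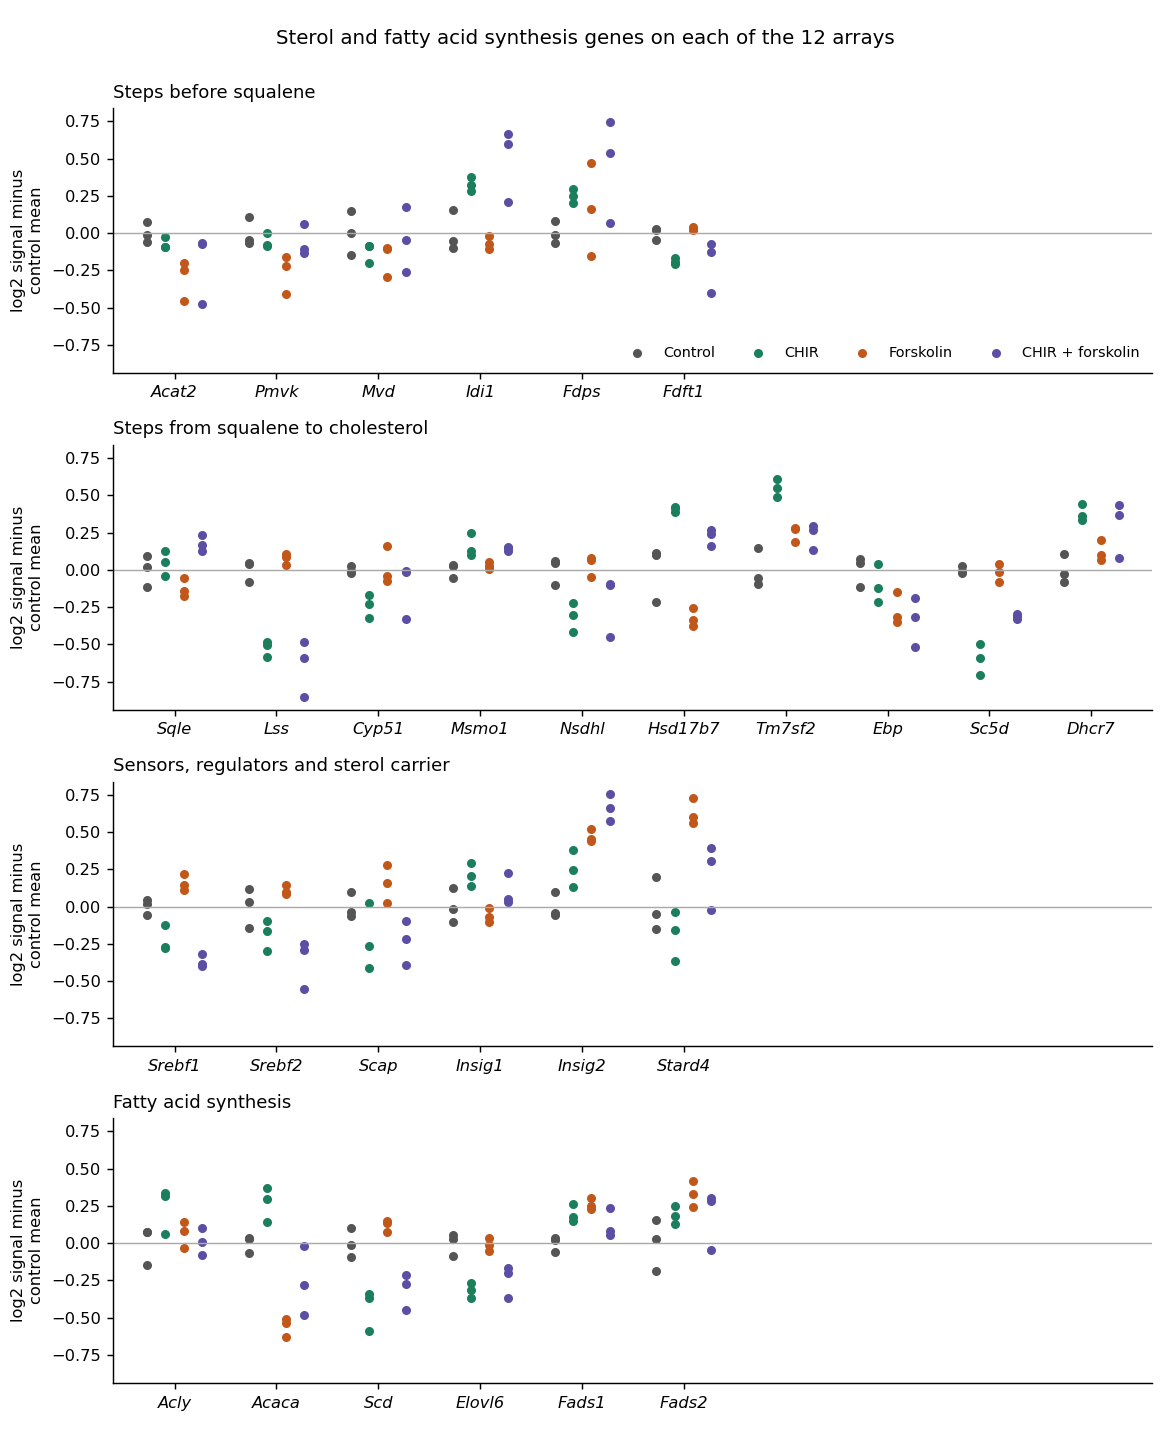
Log2 signal of the 28 measured members on each of the 12 arrays (points), as the difference from the member's control mean, with members arranged by role and coloured by group. After squalene, Lss and Sc5d lie below 0 and Tm7sf2, Hsd17b7 and Dhcr7 above 0 on all CHIR arrays, and the lowest of the 3 combination points was the first array in 25 of the 28 members.

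The first comparison, CHIR against control, sets GSK3 inhibition against untreated cells. In all, 5 of the 28 members rose and 6 fell, 11 together, while 28.1% of all genes were called (14.3% higher and 13.9% lower). Of the 10 measured enzymes after squalene 6 were called, 3 higher and 3 lower. The median difference over the 28 members was -0.06, against 0.01 over all genes. The enzymes that fell were Sc5d, Lss and Nsdhl, and those that rose were Tm7sf2, Hsd17b7 and Dhcr7. In the same comparison 10 of the 11 parietal endoderm markers fell and 0 rose (median -0.72), 4 of the 6 general endoderm markers fell and 0 rose, and of the 10 visceral endoderm markers 4 rose and 2 fell. The share of 28.1%, like the all-gene shares below, includes genes near background, whereas all 28 members were above it. A fit on only the 10405 genes above background called 4730 with CHIR, 2652 with forskolin and 4836 with the combination against control. It called 2491 for the combination against CHIR, 5028 for the combination against forskolin, 5718 for CHIR against forskolin and 1210 in the interaction. Each is a larger share than over all genes.

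Lss, lanosterol synthase, closes the ring system of all sterols and was at 11.58, 11.71 and 11.70 on the control arrays and at 11.08, 11.16 and 11.19 with CHIR. All 3 CHIR arrays were below all controls, and the difference was -0.52 (SE 0.0925, adjusted p = 0.00057), 1.44-fold lower. Sc5d, the desaturase of the penultimate steps, was at 12.68, 12.65 and 12.63 in controls and at 12.06, 11.95 and 12.16 with CHIR. This was the largest change among the members, -0.60 (SE 0.0744, adjusted p = 2.65e-05), with the groups well apart. Nsdhl, a dehydrogenase that helps remove the methyl groups, lay at 11.98, 11.84 and 12.00 in controls and at 11.52, 11.64 and 11.72 with CHIR, a smaller difference of -0.31 (SE 0.102, adjusted p = 0.033).

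Tm7sf2, a sterol reductase acting soon after Lss, went the other way. Its control arrays read 10.14, 9.94 and 9.90 and its CHIR arrays 10.60, 10.54 and 10.48, a rise of 0.55 (SE 0.0832, adjusted p = 0.000157) with no overlap. Hsd17b7, the ketoreductase that works in turn with Nsdhl, rose from 10.08, 10.40 and 10.41 to 10.71, 10.72 and 10.68. The 3 CHIR arrays were nearly equal while the first control array was low, and the difference was 0.41 (SE 0.0897, adjusted p = 0.0031). Dhcr7, the last reductase before cholesterol, rose from 11.04, 10.99 and 11.17 to 11.40, 11.50 and 11.43, by 0.38 (SE 0.0956, adjusted p = 0.00809). Sqle, the squalene epoxidase that controls entry to these steps, had overlapping arrays and a difference of 0.05 (adjusted p = 0.751).

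Before squalene, 1 of 6 measured enzymes was called: Idi1, the isomerase of the isoprenoid units, read 11.32, 11.58 and 11.37 in controls and 11.80, 11.71 and 11.75 with CHIR, a difference of 0.33 (SE 0.111, adjusted p = 0.0393). Among the 6 sensors and carriers 1 rose and 1 fell. Insig2, which retains SCAP, rose by 0.25 (adjusted p = 0.0393) and Srebf1 fell by 0.22 on the log2 scale (adjusted p = 0.0348). Srebf2 (-0.18, adjusted p = 0.195), Scap (-0.22, adjusted p = 0.2) and Insig1 (0.21, adjusted p = 0.0848) did not pass. Of the 6 measured fatty acid genes, 0 rose and 2 fell. The stearoyl-CoA desaturase Scd was at 11.70, 11.50 and 11.59 in controls and 11.01, 11.23 and 11.26 with CHIR, a difference of -0.43 (SE 0.0918, adjusted p = 0.00242). The elongase Elovl6 read 13.46, 13.60 and 13.57 and 13.23, 13.17 and 13.27, a difference of -0.32 (SE 0.0783, adjusted p = 0.00705), and whether a signal of this brightness is near a ceiling was not tested. In both, every CHIR array was below every control.

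Sc5d, Lss, Tm7sf2, Hsd17b7 and Dhcr7 kept their calls in every alternative run. The calls of Idi1, Nsdhl, Insig2 and Srebf1 were close to the threshold. That of Idi1 ended without Control 1 or 3, any CHIR array, or Forskolin 1 or 3 (differences 0.28 to 0.35, adjusted p 0.0502 to 0.130). That of Nsdhl ended without Control 1 or 3 or CHIR 1 or 2 (-0.32 to -0.26, adjusted p 0.0680 to 0.122). That of Insig2 ended without Control 2 or 3, CHIR 2 or 3, Forskolin 1 or 2, or CHIR_Forskolin 3 (0.19 to 0.26, adjusted p 0.0501 to 0.160). That of Srebf1 ended without Control 1 or 3 or CHIR 1 or 3 (-0.22 to -0.20, adjusted p 0.0925 to 0.110). When the gene value was its brightest probe set instead of the median, the calls of Scd (-0.13, adjusted p = 0.345), Elovl6 (-0.19, adjusted p = 0.233), Nsdhl (-0.21, adjusted p = 0.176), Insig2 (0.34, adjusted p = 0.139) and Srebf1 (-0.14, adjusted p = 0.361) ended. With the mean of the probe sets those of Nsdhl (-0.23, adjusted p = 0.0690) and Insig2 (0.15, adjusted p = 0.0730) ended, and Scap (-0.22, adjusted p = 0.00928) and Insig1 (0.19, adjusted p = 0.0311) passed. Scap passed without CHIR 2 (-0.34, adjusted p = 0.0378) and Insig1 without Control 2 (0.27, adjusted p = 0.0430). Centring the arrays on their medians ended the calls of Nsdhl (-0.30, adjusted p = 0.0521) and Srebf1 (-0.21, adjusted p = 0.0809). A fit on the compared groups alone ended those of Insig2 (adjusted p = 0.0893) and Srebf1 (adjusted p = 0.0934).

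**Figure D2:**
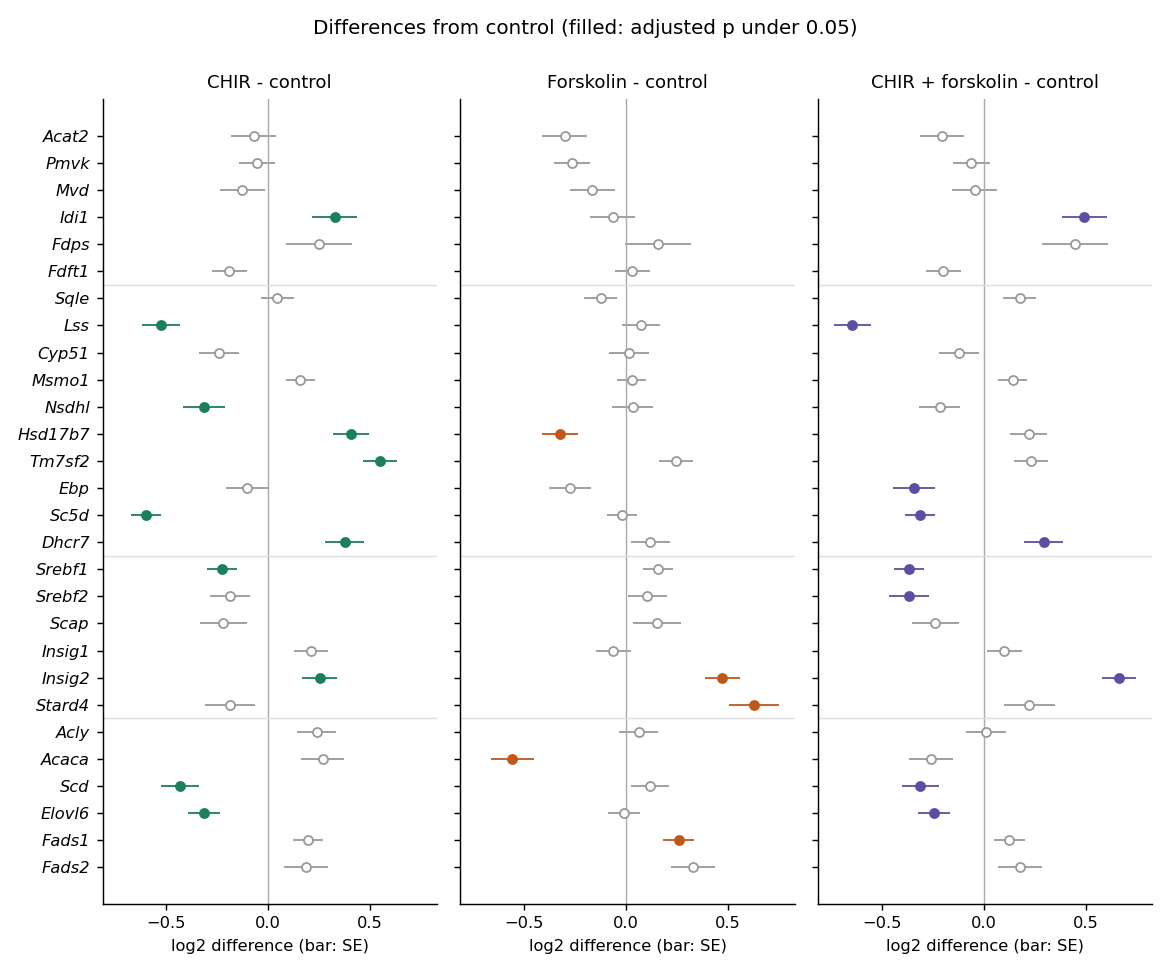
Log2 difference from control of the 28 members for CHIR, forskolin and the combination, with bars of 1 standard error from the limma fit over 12 arrays; filled points passed adjusted p under 0.05. CHIR moved enzymes after squalene both ways (Sc5d -0.60, Tm7sf2 0.55), and forskolin moved Stard4 (0.63), Insig2 (0.47) and Acaca (-0.56).

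Forskolin against control sets the activation of adenylate cyclase against untreated cells. It raised a sterol carrier, a sensor and a desaturase, and lowered the committing enzyme of fatty acid synthesis and 1 enzyme of the sterol chain. Of the 28 members 3 rose and 2 fell, 5 in all (17.9%). This is near the 15.0% called over all genes (6.07% higher and 8.92% lower). With each array centred on its own median, the share of calls over all genes that were higher went from 40.5% to 50.7%. The median over the members was 0.03, against 0.00 over all genes. Of the 10 visceral endoderm markers 4 fell, Hnf4a (-2.04), Amn (-1.39), Cdh1 (-1.35) and Cubn (-1.29), and 0 rose, and of the 11 parietal ones 1 rose and 0 fell.

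Stard4, a soluble carrier that moves cholesterol between membranes, was at 7.80, 8.15 and 7.91 in controls and 8.56, 8.51 and 8.68 with forskolin. All forskolin arrays were above all controls, and the rise of 0.63 (SE 0.123, adjusted p = 0.00294) was 1.55-fold and kept its call in every alternative run. Insig2 rose from 9.92, 9.78 and 9.77 to 10.34, 10.28 and 10.26, by 0.47 (SE 0.0853, adjusted p = 0.00163), again with no overlap. Insig1, its close relative and itself a known SREBP target, did not pass (-0.06, adjusted p = 0.731). Nor did Srebf1 (0.16, adjusted p = 0.197), Srebf2 (0.11, adjusted p = 0.566) or Scap (0.15, adjusted p = 0.469).

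Acaca, acetyl-CoA carboxylase, which commits acetyl-CoA to fatty acids, fell. Its arrays read 9.59, 9.69 and 9.68 in controls and 9.02, 9.14 and 9.12 with forskolin, a difference of -0.56 (SE 0.107, adjusted p = 0.00251) without overlap. Fads1, a desaturase of long unsaturated fatty acids, rose from 12.08, 12.00 and 12.09 to 12.28, 12.36 and 12.30, by 0.26 (adjusted p = 0.0319), and Scd did not pass (0.12, adjusted p = 0.478). Of the sterol enzymes, Hsd17b7 was the single call: it read 10.08, 10.40 and 10.41 in controls and 9.92, 9.96 and 10.04 with forskolin, a difference of -0.32 (SE 0.0897, adjusted p = 0.0254). Sqle (-0.12, adjusted p = 0.382) and the 6 enzymes before squalene did not pass.

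Taking the brightest probe set ended the calls of Acaca (-0.21, adjusted p = 0.310), Insig2 (0.51, adjusted p = 0.0594), Fads1 (0.11, adjusted p = 0.493) and Hsd17b7 (-0.21, adjusted p = 0.124), and the last also ended with the mean of the probe sets (-0.20, adjusted p = 0.0859). The call of Hsd17b7 ended without Control 2 or 3 or Forskolin 1 or 2 (-0.32 to -0.27, adjusted p 0.0732 to 0.114), and that of Fads1 without any control or any forskolin array (0.23 to 0.28, adjusted p 0.0556 to 0.108). A fit on the compared groups alone also ended the calls of Hsd17b7 (adjusted p = 0.0717) and Fads1 (adjusted p = 0.0539).

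**Figure D3:**
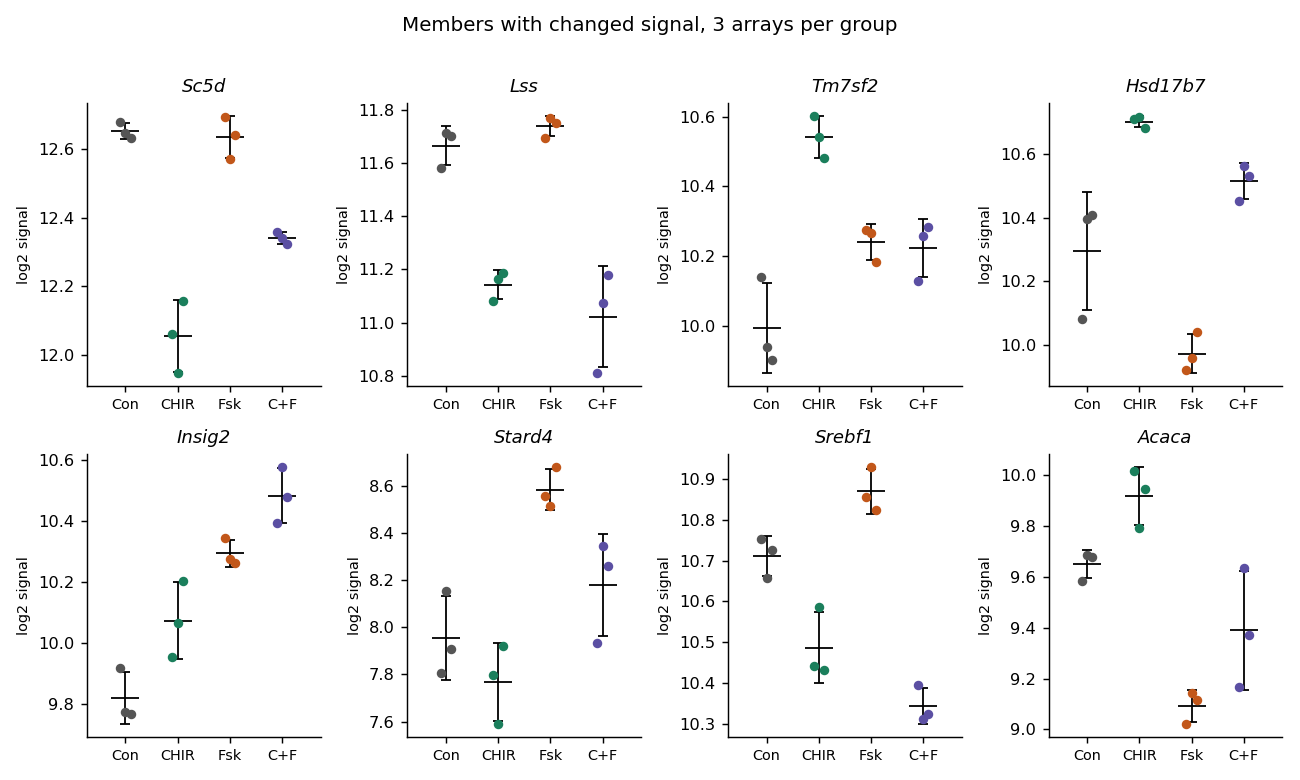
Log2 signal of 8 members on each array (points) with the group mean and SD over 3 arrays (bars). Stard4 and Insig2 lie above control with forskolin, Acaca below it, and Lss and Sc5d lie below control in both groups that received CHIR99021.

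CHIR was also set against forskolin directly, which compares the 2 compounds without the controls. Of the 28 members, 5 were higher with CHIR and 9 lower, 14 in all, where 35.2% of all genes were called (19.5% higher and 15.7% lower). All 11 parietal endoderm markers were lower with CHIR (median -0.99), and of the 10 visceral ones 4 were higher and 2 lower. Among the 6 sensors and carriers, 1 was higher and 4 lower. Stard4 was at 7.80, 7.59 and 7.92 with CHIR, below every forskolin array, a difference of -0.82 (SE 0.123, adjusted p = 0.000112). Acaca was at 10.02, 9.79 and 9.94 with CHIR, above every forskolin array, a difference of 0.83 (SE 0.107, adjusted p = 2.55e-05), 1.77-fold and the widest gap of any member. Hsd17b7 differed by 0.73 (adjusted p = 1.58e-05). The CHIR arrays were lower for Lss (-0.60, adjusted p = 0.000139), Sc5d (-0.58, adjusted p = 2.42e-05) and Scd (-0.55, adjusted p = 0.00026).

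Among the regulators the CHIR arrays were lower for Srebf1, Srebf2 and Scap and higher for Insig1. Srebf1, the SREBP best known for fatty acid genes, was at 10.44, 10.59 and 10.43 with CHIR and 10.86, 10.93 and 10.82 with forskolin, a difference of -0.38 (SE 0.0739, adjusted p = 0.000874) without overlap. Srebf2, the SREBP best known for cholesterol genes, differed by -0.29 (adjusted p = 0.031) and Scap by -0.37 (adjusted p = 0.022), Scap with 1 CHIR array at 9.66, equal to the lowest forskolin array to 2 decimals. Insig1 differed by 0.27 (adjusted p = 0.0223), and Insig2 did not pass (-0.22, adjusted p = 0.0613), nor did Sqle (0.17, adjusted p = 0.126). Idi1 was higher (0.39, adjusted p = 0.0122) and Nsdhl lower (-0.35, adjusted p = 0.0159). Elovl6 and Tm7sf2 completed the calls, at -0.30 (adjusted p = 0.00706) and 0.30 (adjusted p = 0.0112).

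With the brightest probe set, the differences of Acaca (0.26, adjusted p = 0.103), Srebf1 (-0.21, adjusted p = 0.124), Elovl6 (-0.20, adjusted p = 0.179), Srebf2 (-0.09, adjusted p = 0.488), Insig1 (0.14, adjusted p = 0.308), Nsdhl (-0.17, adjusted p = 0.230) and Tm7sf2 (0.17, adjusted p = 0.267) no longer passed. With the mean of the probe sets Nsdhl (-0.21, adjusted p = 0.0892) did not pass, while Insig2 (-0.26, adjusted p = 0.00254) and Sqle (0.22, adjusted p = 0.0128) did. The calls of Srebf2 ended without CHIR 1 or 3 or any forskolin array (-0.30 to -0.24, adjusted p 0.0589 to 0.120), of Scap without CHIR 1 or 3 or Forskolin 1 or 2 (-0.37 to -0.27, adjusted p 0.0553 to 0.107), of Insig1 without CHIR 1 or Forskolin 1 or 3 (0.23 to 0.27, adjusted p 0.0583 to 0.0870) and of Nsdhl without CHIR 1 or Forskolin 2 (-0.32 to -0.29, adjusted p 0.0557 to 0.0685). Without CHIR 3, Insig2 passed (-0.28, adjusted p = 0.0271).

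The combination against control shows both compounds together. Of the 28 members, 3 were higher and 7 lower, 10 in all, where 29.0% of all genes were called (14.3% higher and 14.7% lower). Of the 11 parietal endoderm markers 1 rose and 9 fell (median -0.43), and of the 10 visceral ones 2 rose and 4 fell. Insig2 read 10.39, 10.58 and 10.48 with the combination, above every control, a difference of 0.66 (SE 0.0853, adjusted p = 3.81e-05), 1.58-fold. Idi1 was at 11.63, 12.09 and 12.02, above every control although its first array was lower than the other two, a difference of 0.49 (SE 0.111, adjusted p = 0.00363). Lss was at 10.81, 11.08 and 11.18, below every control, a difference of -0.64 (SE 0.0925, adjusted p = 0.000101). Sc5d was at 12.36, 12.34 and 12.32, the tightest of these groups, a difference of -0.31 (adjusted p = 0.0053).

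The SREBP genes were both lower. Srebf1 read 10.39, 10.31 and 10.32 with the combination against 10.75, 10.66 and 10.73 in controls, a difference of -0.37 (SE 0.0739, adjusted p = 0.0016). Srebf2 read 11.33, 11.63 and 11.59 against 11.73, 11.91 and 11.99, a difference of -0.37 (SE 0.0971, adjusted p = 0.0105), with the first combination array lowest. Ebp, the sterol isomerase, differed by -0.34 (adjusted p = 0.021), Scd by -0.31 (adjusted p = 0.0196) and Elovl6 by -0.24 (adjusted p = 0.0303). Dhcr7 was the remaining call, at 0.29 (adjusted p = 0.0326), with arrays that overlapped those of the controls. Scap (-0.24, adjusted p = 0.156), Insig1 (0.10, adjusted p = 0.443) and Sqle (0.18, adjusted p = 0.128) did not pass.

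Without the first combination array 9 members and 4343 of all genes were called, against 10 and 4821 with it. The differences were 0.71 for Insig2, 0.63 for Idi1, -0.54 for Lss, -0.39 for Srebf1 and -0.32 for Sc5d, all past the threshold. That of Dhcr7 was 0.40 (adjusted p = 0.00390), and Fdps (0.64, adjusted p = 0.00488), Tm7sf2 (0.28, adjusted p = 0.0383) and Stard4 (0.35, adjusted p = 0.0497) passed. The calls of Srebf2 (-0.27, adjusted p = 0.0518), Ebp (-0.25, adjusted p = 0.0974), Scd (-0.24, adjusted p = 0.0874) and Elovl6 (-0.18, adjusted p = 0.126) ended without it. The call also ended without Control 3 for Srebf2 (-0.31), without Control 1 or 3 for Ebp (-0.32 to -0.30), without Control 1 for Scd (-0.26) and without Control 2 or 3 for Elovl6 (-0.23 to -0.22). The call of Dhcr7 ended without Control 1 or 2 or CHIR_Forskolin 2 or 3 (0.22 to 0.28), with the mean of the probe sets (0.25, adjusted p = 0.0752) and with the brightest (0.24, adjusted p = 0.121). The brightest probe set also ended those of Scd (-0.13, adjusted p = 0.369) and Elovl6 (-0.20, adjusted p = 0.218), and the mean that of Scd (-0.23, adjusted p = 0.101). Scap passed with the mean (-0.46, adjusted p = 1.58e-05) and the brightest probe set (-0.34, adjusted p = 0.0471). Sqle passed with the mean (0.20, adjusted p = 0.0227) and with arrays centred on their medians (0.22, adjusted p = 0.0486). Centred arrays also ended the calls of Scd (-0.27, adjusted p = 0.0576) and Elovl6 (-0.20, adjusted p = 0.0617). A fit on the compared groups alone ended those of Elovl6 (adjusted p = 0.0768) and Dhcr7 (adjusted p = 0.0788).

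The combination against CHIR shows what forskolin changed in cells that already had CHIR99021. Of the 28 members, 3 were higher and 2 lower, 5 in all (17.9%). This is near the 13.8% called over all genes (6.51% higher and 7.33% lower). Of the 10 visceral endoderm markers 6 were lower and 0 higher (median -0.58), and of the 11 parietal ones 4 were higher and 0 lower. Acaca read 9.17, 9.63 and 9.37 with the combination against 10.02, 9.79 and 9.94 with CHIR, a difference of -0.53 (SE 0.107, adjusted p = 0.00386). Insig2 was higher by 0.41 (adjusted p = 0.0048) and Stard4, at 7.93, 8.34 and 8.26, by 0.41 (adjusted p = 0.041). These 3 had moved the same way with forskolin alone, in a comparison on other arrays. Tm7sf2, at 10.13, 10.26 and 10.28, was lower (-0.32, adjusted p = 0.0201), and Sc5d was higher by 0.28 (adjusted p = 0.0198). In none of the 5 did the arrays overlap. Srebf1 (-0.14, adjusted p = 0.261), Srebf2 (-0.18, adjusted p = 0.282), Scap (-0.02, adjusted p = 0.955), Insig1 (-0.11, adjusted p = 0.498), Sqle (0.13, adjusted p = 0.37) and Scd (0.12, adjusted p = 0.488) did not pass.

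Without the first combination array the calls of Tm7sf2 (-0.27, adjusted p = 0.0810) and Sc5d (0.28, adjusted p = 0.0563) ended, while Acaca (-0.42), Stard4 (0.53) and Insig2 (0.45) passed. The call of Tm7sf2 also ended without CHIR 1 or 2 (-0.32 to -0.29), that of Sc5d without CHIR 1 or 2 or CHIR_Forskolin 2 (0.23 to 0.29), and that of Stard4 without any of 7 arrays, Control 3, CHIR 1 or 2, CHIR_Forskolin 2 or 3 and Forskolin 1 or 2 (0.32 to 0.42, adjusted p 0.0523 to 0.163). Idi1 passed without the first combination array (0.30, adjusted p = 0.0499). The brightest probe set ended the calls of Acaca (-0.08, adjusted p = 0.757), Insig2 (0.45, adjusted p = 0.0905), Tm7sf2 (-0.12, adjusted p = 0.614) and Sc5d (0.12, adjusted p = 0.527), and with the mean Scap passed (-0.24, adjusted p = 0.00988). A fit on the compared groups alone ended those of Stard4 (adjusted p = 0.0733) and Sc5d (adjusted p = 0.0636).

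The combination against forskolin compares cells given CHIR99021 from the day before forskolin with cells given forskolin alone. Of the 28 members, 4 were higher and 8 lower, 12 in all, where 30.0% of all genes were called (16.4% higher and 13.6% lower). Of the 11 parietal endoderm markers 10 were lower and 0 higher (median -0.62), and of the 10 visceral ones 4 were higher and 2 lower. Of the 6 sensors and carriers 4 were lower and 0 higher. Srebf1 differed by -0.53 (SE 0.0739, adjusted p = 8.05e-05) and Srebf2 by -0.47 (SE 0.0971, adjusted p = 0.00183), both without overlap. Scap (-0.39, adjusted p = 0.0196) and Stard4 (-0.41, adjusted p = 0.0222) were lower too, whereas Insig1 (0.16, adjusted p = 0.182) and Insig2 (0.19, adjusted p = 0.117) did not pass. Among the enzymes, Lss (-0.72, adjusted p = 3.65e-05), Scd (-0.43, adjusted p = 0.00242), Sc5d (-0.30, adjusted p = 0.00751) and Elovl6 (-0.23, adjusted p = 0.0366) were lower. Idi1 (0.56, adjusted p = 0.0014), Hsd17b7 (0.54, adjusted p = 0.000322), Acaca (0.30, adjusted p = 0.0493) and Sqle were higher. Sqle read 10.75, 10.80 and 10.87 against 10.49, 10.58 and 10.46 with forskolin, a difference of 0.30 (SE 0.0801, adjusted p = 0.0109), its single call in the 6 comparisons.

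Without the first combination array 11 members and 4524 of all genes were called, against 12 and 4998 with it. The calls of Stard4 (-0.28, adjusted p = 0.105), Scap (-0.31, adjusted p = 0.0852) and Elovl6 (-0.17, adjusted p = 0.146) ended. Sc5d was at -0.30 (adjusted p = 0.0166), and Fdps (0.48, adjusted p = 0.0242) and Dhcr7 (0.28, adjusted p = 0.0296) passed. The calls also ended without Forskolin 3 for Stard4 (-0.36), without Forskolin 1 or 2 for Scap (-0.39 to -0.33) and without CHIR_Forskolin 3 or any forskolin array for Elovl6 (-0.26 to -0.21). The call of Acaca ended without any of 10 arrays, all but CHIR 2 and CHIR_Forskolin 1 (0.18 to 0.32, adjusted p 0.0527 to 0.232), and with the brightest probe set (0.18, adjusted p = 0.278). The brightest probe set also ended those of Sqle (0.21, adjusted p = 0.224) and Elovl6 (-0.20, adjusted p = 0.191). A fit on the compared groups alone ended those of Acaca (adjusted p = 0.0874) and Elovl6 (adjusted p = 0.0607), and an intensity trend that of Acaca (adjusted p = 0.0504).

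The interaction asks whether forskolin acted differently in the presence of CHIR99021, as its effect with CHIR minus its effect without. Of the 28 members 0 were higher and 1 was lower, where 6.31% of all genes were called (3.25% higher and 3.07% lower). At an unadjusted limma p under 0.05 the counts were 2 higher and 4 lower. The share over all genes at that looser threshold was not counted, so these counts cannot be set beside the 6.31%. The call was Tm7sf2 (-0.56, SE 0.118, adjusted p = 0.0093). It read 10.14, 9.94 and 9.90 in controls and 10.27, 10.27 and 10.18 with forskolin, and 10.60, 10.54 and 10.48 with CHIR against 10.13, 10.26 and 10.28 with the combination. With the brightest probe set the value was -0.46 (adjusted p = 0.160). With the mean of the probe sets Scap (-0.29, adjusted p = 0.0404) and Sqle (0.33, adjusted p = 0.0321) passed. Srebf1 (-0.30, adjusted p = 0.123), Srebf2 (-0.29, adjusted p = 0.293), Scap (-0.17, adjusted p = 0.679), Insig1 (-0.05, adjusted p = 0.901), Insig2 (-0.06, adjusted p = 0.866), Sqle (0.25, adjusted p = 0.255) and Scd (0.00, adjusted p = 0.997) did not pass.

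The members' values rest on 385 probe sets, which mostly cover single exons, and these show whether a change runs along the gene. With CHIR, all 7 probe sets of Sc5d were lower and passed on their own. All 25 of Lss were lower, 16 of them called, with differences between -0.75 and -0.12. All 9 of Dhcr7 were higher (6 called), as were 10 of 11 of Tm7sf2 (8 called) and all 13 of Hsd17b7 (3 called). With forskolin, all 10 probe sets of Stard4 were higher (5 called) and all 8 of Insig2 (2 called). Acaca, with 59 probe sets, had 56 lower and 8 called, between -1.25 and 0.22. For Hsd17b7 with forskolin, 10 of 13 were lower and 0 passed on their own, and for Fads1 12 of 13 were higher and 0 passed. Over all members, CHIR raised 21 probe sets and lowered 35, 14.5% of the 385, where 16.8% of all 211195 probe sets were called (8.36% higher and 8.44% lower). Forskolin raised 8 and lowered 10, 4.68%, where 6.5% of all were called (2.99% higher and 3.51% lower).

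**Figure D4:**
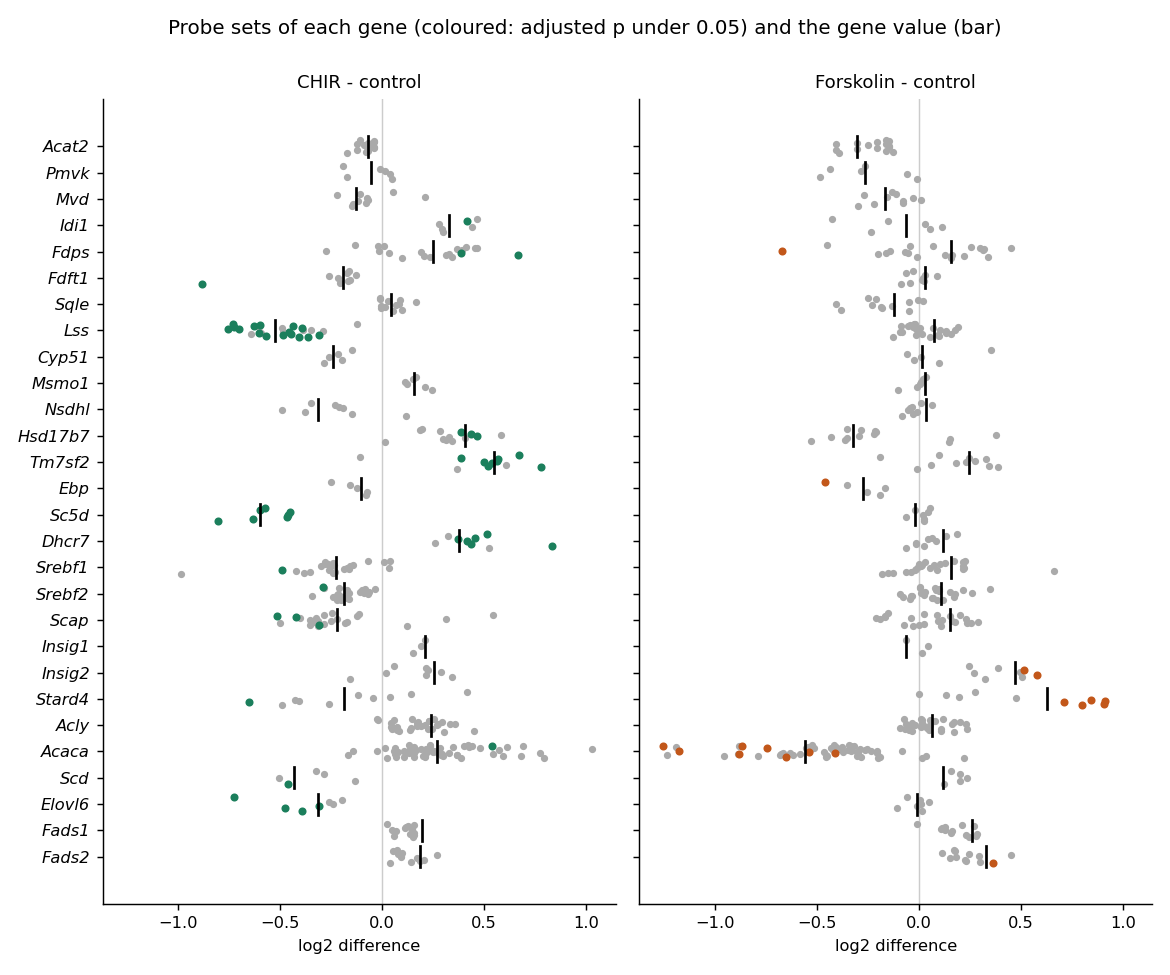
Log2 differences from control of the single probe sets of the 28 members (points), coloured where the probe set passed adjusted p under 0.05, with the gene value as a bar, which can lie outside the points because the median is taken on each array. The probe sets of Sc5d and Lss under CHIR all lie below 0, while those of Acaca under forskolin run from -1.25 to 0.22.

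Genes around the 2 pathways, 83 measured in 5 lists, included differences of up to 2.95 log2 units, where the largest of a member was 0.83. Abca1, the pump that loads cholesterol onto apolipoprotein and a known LXR target, was at 11.59, 11.62 and 11.68 in controls, 10.23, 10.24 and 10.15 with CHIR, 12.25, 12.33 and 12.25 with forskolin and 10.31, 10.39 and 10.25 with the combination. It fell with CHIR (-1.42, adjusted p = 3.46e-09) and the combination (-1.31, adjusted p = 8.87e-09) and rose with forskolin (0.65, adjusted p = 2.28e-05). Abcg1, another sterol exporter and LXR target, was at 9.76, 9.79 and 9.84, 8.71, 9.14 and 9.28, 10.70, 10.80 and 10.57 and 8.25, 8.54 and 8.44 in the same order. It rose with forskolin (0.90, adjusted p = 0.00022) and fell with the combination (-1.38, adjusted p = 1.46e-06). The groups of neither gene overlapped in these comparisons. Of the 11 genes of LXR and sterol export, CHIR raised 1 and lowered 3, forskolin raised 2 and lowered 0, and the combination raised 0 and lowered 4. These are 36.4%, 18.2% and 36.4% of the list, where 28.1%, 15.0% and 29.0% of all genes were called. Against forskolin, Abca1 differed by -2.07 with CHIR and by -1.96 with the combination, and Abcg1 differed by -1.64 and -2.28. Hsd3b7, a bile acid synthesis enzyme of the same list, was lower with the combination than with CHIR (-0.84, adjusted p = 0.000299).

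Of 18 genes of sterol uptake, traffic and SREBP processing, CHIR raised 4 and lowered 5, forskolin raised 1 and lowered 3, and the combination raised 3 and lowered 5. The shares called were 50.0%, 22.2% and 44.4%, against the same 28.1%, 15.0% and 29.0% over all genes. Only Soat2 of this list was below background in every group. Of the 10405 genes above background, 4730, 2652 and 4836 were called in the same order, larger shares than over all genes. The list is therefore not shown to stand out from genes of like signal. Vldlr, a lipoprotein receptor, read 5.70, 5.75 and 5.86 in controls, below the background level of 6.42, and 7.33, 6.83 and 7.28 with CHIR, a difference of 1.38 (adjusted p = 3.23e-05) that a control near background can understate. It was at 7.48, 7.51 and 7.93 with the combination, 1.87 above control (adjusted p = 1.83e-06) and 1.23 above forskolin (adjusted p = 9.29e-05). With forskolin alone Vldlr was at 6.03, 6.71 and 6.51, above every control array. Lrp8, a related receptor, fell with forskolin from 8.29, 8.26 and 8.26 to 7.44, 7.57 and 7.32 (-0.83, adjusted p = 0.00261). It was higher with CHIR than with forskolin by 1.70 (adjusted p = 1.14e-06) and lower with the combination than with CHIR (-0.92, adjusted p = 0.00127), where the first combination array was lowest and the difference without it was -0.67. Erlin1, a membrane protein that restrains SREBP activation, fell with forskolin (-0.87, adjusted p = 0.000127), a call that ended with the brightest probe set (-0.44, adjusted p = 0.0659). Its group means were 10.57 in controls, 10.12 with CHIR, 9.70 with forskolin and 9.36 with the combination, the lowest.

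Of 31 other lipogenic genes, CHIR raised 10 and lowered 4, forskolin raised 3 and lowered 2, and the combination raised 10 and lowered 3. The shares called were 45.2%, 16.1% and 41.9%, against 28.1%, 15.0% and 29.0%, so that forskolin was near the share over all genes. The largest rise was Hacd3, a dehydratase of very long chain fatty acid elongation, from 9.07, 9.05 and 9.33 in controls to 12.06, 12.05 and 12.18 with CHIR, a difference of 2.95 (SE 0.0915, adjusted p = 4.45e-11), 7.71-fold. It stood 2.88 above control with the combination (adjusted p = 6.47e-11), 2.37 higher with CHIR than with forskolin and 2.31 higher with the combination than with forskolin. The forskolin arrays of Hacd3, at 9.82, 9.73 and 9.62, were also above every control array. Acsl1, which activates long chain fatty acids, rose by 1.47 with CHIR (adjusted p = 2.5e-06) and by 0.88 with the combination (adjusted p = 0.000296). It was 1.63 higher with CHIR and 1.04 higher with the combination than with forskolin. Acacb, the carboxylase whose product holds back fatty acid oxidation, rose with forskolin from 6.58, 6.93 and 6.93 to 7.80, 7.58 and 7.37 (0.77, adjusted p = 0.000769), opposite to Acaca. It was lower with CHIR (-1.83) and with the combination (-1.63) than with forskolin, and its CHIR arrays (5.60, 5.82 and 5.85) and combination arrays (6.01, 6.03 and 5.81) lay below the background level. Hsd17b12, a reductase of fatty acid elongation, and Lpin1, a lipid phosphatase, were higher with the combination than with CHIR, by 0.51 (adjusted p = 0.000237) and 0.50 (adjusted p = 0.000992), and the call of Hsd17b12 ended with the brightest probe set (0.40, adjusted p = 0.0980).

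Of 19 genes of fatty acid oxidation, CHIR raised 2 and lowered 5, forskolin raised 1 and lowered 2, and the combination raised 4 and lowered 6. The shares called were 36.8%, 15.8% and 52.6%, against 28.1%, 15.0% and 29.0%, again with forskolin near the share over all genes. Cpt1a, the gate for fatty acids into mitochondria, was at 9.73, 9.79 and 9.93 in controls, 7.99, 8.14 and 7.97 with CHIR and 7.91, 7.53 and 7.64 with the combination. The falls were -1.78 (adjusted p = 1.34e-08) and -2.12 (adjusted p = 2.94e-09), without overlap. With forskolin Cpt1a was at 9.05, 9.25 and 9.06, also below every control array. Acadvl, which starts the oxidation of very long chains, fell with CHIR (-1.14, adjusted p = 2.82e-06). Cpt1b, the muscle-type relative of Cpt1a, fell with forskolin (-0.84, adjusted p = 0.000209), a call that ended with the brightest probe set (-0.48, adjusted p = 0.418). The fall of Cpt1b was not confined to forskolin. Its group means were 7.68 in controls, 6.84 with forskolin, 6.55 with CHIR and 6.54 with the combination. Etfb, an electron carrier of the same route, was higher with the combination than with CHIR (0.71, adjusted p = 1.12e-05). Of 4 other sterol synthesis genes measured, CHIR raised 1 and lowered 0, forskolin raised 0 and lowered 1, and the combination raised 1 and lowered 2. The shares called were 25.0%, 25.0% and 75.0%, against 28.1%, 15.0% and 29.0% over all genes. Aacs, which makes acetoacetyl-CoA for sterol and fatty acid synthesis, was at 10.06, 9.94 and 9.74 with CHIR and 8.15, 8.89 and 8.97 with the combination, a difference of -1.24 (SE 0.195, adjusted p = 0.000547). Its first combination array was lowest, and without it the difference was -0.98 (adjusted p = 0.00101).

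**Figure D5:**
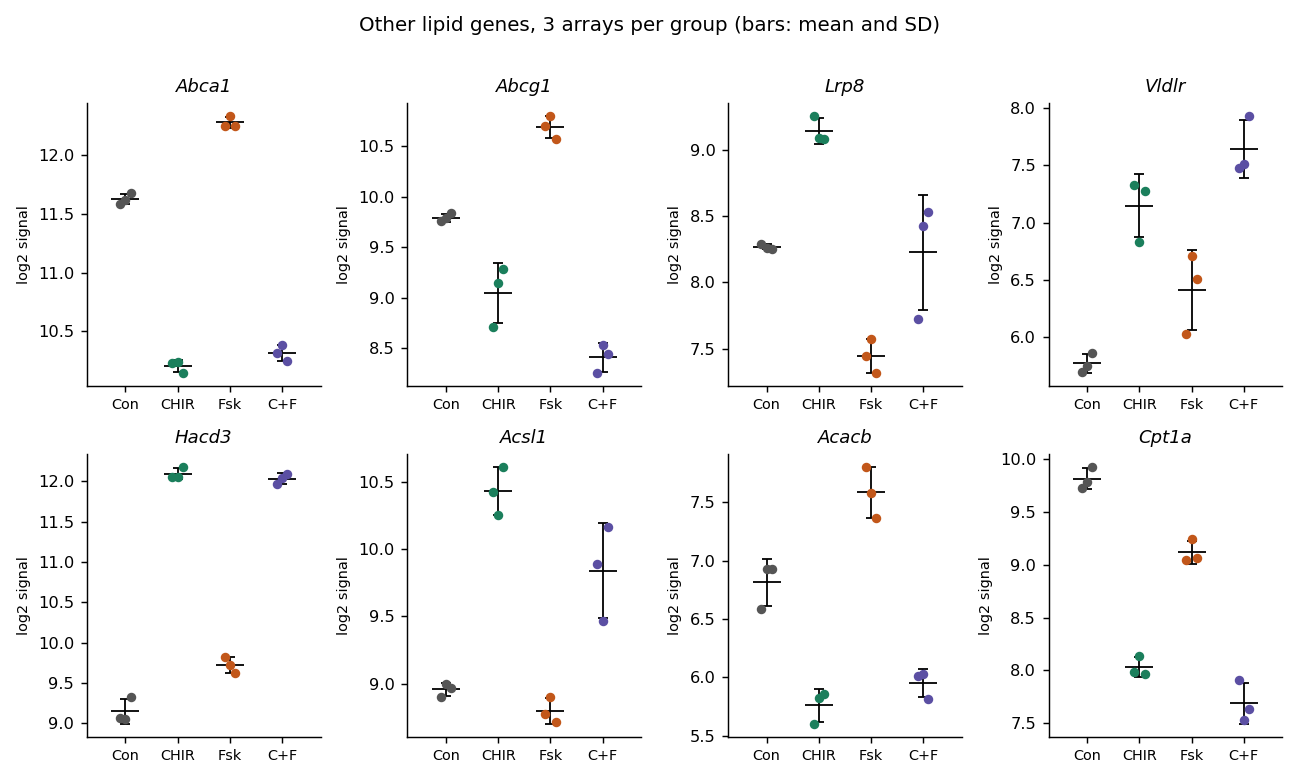
Log2 signal of 8 genes of sterol export, uptake, lipogenesis and fatty acid oxidation on each array (points), with the group mean and SD over 3 arrays (bars), for control (Con), CHIR, forskolin (Fsk) and the combination (C+F). Abca1 and Abcg1 are above control with forskolin and below it in both groups with CHIR99021, while Hacd3 is near 12 in both groups with CHIR99021.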

How the data were processed

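Gene expression was measured in rat XEN cells with Affymetrix arrays, 1 per sample, in 4 groups of 3. The authors deposited log2 signals for each probe set on each array. RMA and Partek are named, per the submitters' processing notes. In the sources used here, versions, annotation and build are not given. The log base is not stated and was inferred from the values' range. RMA compresses low signals, which understates the differences of dim genes. The number of arrays limits the precision.

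Of 211195 probe sets, the platform annotation, from an older release, gave 172924 a single gene symbol, and 1661 with several and 36610 without one were left out. Symbols were updated with RefSeq gene names of GRCr8. Because that annotation lists Scd1 beside Scd, Scd1 was taken as the current Scd, and Scd as Scd2. Gene values are medians over probe sets (median 8, at most 167, 1788 genes with 1).

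Groups were taken from the labels. Limma 3.58.1 in R 4.3.3 fitted 4 group means over 12 arrays with empirical Bayes moderation. Tests are two-sided, with Benjamini-Hochberg adjustment over 16633 genes per comparison and a threshold of 0.05, and the code was tested on simulated data. The 7 comparisons are those in the text. Alternatives were the mean or the brightest probe set, probe sets or genes above background only, arrays centred on their medians, an intensity trend, a fit on the compared groups only, a replicate block and each array left out. They were run for the named genes. The naming rule took members past the threshold with no overlap, up to 10 per comparison, then Srebf1, Srebf2, Scap, Insig1, Insig2, Sqle and Scd in every comparison, and the 3 largest rises and 3 largest falls of the other lists. Dhcr7 with the combination, Tm7sf2 for CHIR against forskolin, Sc5d and Elovl6 for the combination against forskolin, Fdps and, where they passed without the first combination array, other members were named outside it, after their values were seen. The members and lists were chosen with earlier results of these data known.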

Additional observations from a re-analysis of the deposited data

Results flagged for a closer look

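For 6 named genes the effect of forskolin differed between cells with and without CHIR99021, by the interaction term of the limma fit over 16633 genes. Tm7sf2, a sterol reductase, had an interaction of -0.56 (adjusted p = 0.0093). For the sterol exporters the interaction was -0.54 for Abca1 (adjusted p = 0.00471) and -1.53 for Abcg1 (adjusted p = 0.000114). Among genes of fatty acid elongation it was -0.64 for Hacd3 (adjusted p = 0.00793) and 0.56 for Hsd17b12 (adjusted p = 0.00389). For Cpt1b, of fatty acid oxidation, it was 0.84 (adjusted p = 0.00717). With the brightest probe set the calls of Tm7sf2 (-0.46, adjusted p = 0.160), Abca1 (-0.31, adjusted p = 0.112), Hsd17b12 (0.39, adjusted p = 0.404) and Cpt1b (0.55, adjusted p = 0.672) ended. No test of single outlying arrays was run, beyond leaving each array out in turn.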

How the results depend on the processing

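Of 2567 values of named genes recomputed under the alternatives, 2383 kept direction and call, 151 lost the call, 16 gained one and 17 changed sign. The count of members called with CHIR was 11, and it was 6 with the brightest probe set, 17 with an intensity trend and 7 to 14 when each array was left out. All genes called were 4677, and 3861 with the brightest probe set and 4808 with the trend. With forskolin 5 members were called, and 1 with the brightest probe set, 8 among genes above background only, 3 in a fit on the compared groups alone and 3 to 7 with an array left out. All genes called were 2492, 1726 with the brightest probe set, 2367 on the compared groups alone and 2652 of the 10405 above background. For the combination against CHIR 5 members were called, and 1 with the brightest probe set, 3 on the compared groups alone and 2 to 5 with an array left out. All genes called were 2301, 1722 with the brightest probe set and 1911 on the compared groups alone. For CHIR against forskolin 14 members were called, and 8 with the brightest probe set, beside 5852 and 5271 of all genes. For the interaction 1 member was called, and 4 with the mean of the probe sets, 0 with the brightest and 3 with the trend. Over all genes, the interaction called 1050, against 1870 with the mean, 630 with the brightest probe set and 1130 with the trend. The median over members for the combination against forskolin was -0.06, and 0.00985 with the brightest probe set. That of the interaction ran from -0.0501 to 0.0649 with an array left out, the highest without CHIR_Forskolin 1. The cause was not tested.

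All 17 changes of sign were in values past the threshold on neither side. Sqle with CHIR ran from -0.0101 to 0.0928, Scap for the combination against CHIR from -0.117 to 0.103 with an array left out (0.00708 with centred arrays, but -0.238 and called with the mean of the probe sets, adjusted p = 0.00988), and the interactions of Insig1 from -0.111 to 0.003, Insig2 from -0.124 to 0.000896 and Scd from -0.0775 to 0.0693 with an array left out. With the brightest probe set Insig1 was 0.0139 with forskolin, 0.0329 for the combination against CHIR and 0.0190 in the interaction. The interaction of Scd was -0.0745 with the mean, -0.192 with the brightest probe set and -0.0117 with centred arrays.

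Same-numbered arrays did not deviate together (correlations -0.19 to 0.16, over 0.1 in 1 of 18 pairs), so the numbers were not taken as pairs. With the replicate number as a block, the counts of members called were 9 (CHIR), 6 (forskolin) and 10 (combination) against control, 5, 11 and 15 in the other pairwise comparisons and 1 in the interaction. Over all genes these counts were 4581, 2401 and 4711, then 2175, 4907 and 5768, and 978 in the same order. The calls of Insig2 (adjusted p = 0.0619) and Srebf1 (adjusted p = 0.0519) with CHIR and Acaca for the combination against forskolin (adjusted p = 0.0590) ended. Precision is limited by 3 arrays per group and by compression near background.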
